A study of Mus musculus with 3 samples.

Results

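The genes described here are 10 transcripts of the B lymphocyte lineage, chosen by name from 17551 genes in the table: Ighm, Igkc, Cd79a, Cd79b, Vpreb1, Igll1, Vpreb3, Ms4a1, Ebf1 and Jchain. All 10 were in the table. Single cells of 4 mouse brains were profiled by CITE-seq, in which antibodies carrying sequence tags are counted beside the mRNA of each droplet. The study set naive brains against brains in which E0771 cells, of a mouse mammary carcinoma line, had formed metastases. Every animal was a C57BL/6 female of 2 to 3 months, and tumor-bearing mice had received E0771 cells through the carotid artery about 2 weeks earlier. Each brain was stained with 6 antibodies and its own hashtag, and the cells were enriched for immune cells on a Percoll gradient, pooled and run as 1 set of 3 libraries. The sources used here do not say which hashtags marked naive brains, so each brain is named by its hashtag and conditions were not compared.

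B cells form in the bone marrow through ordered steps. A cell that has made a mu heavy chain (Ighm) first displays it with the surrogate light chain, a pair of proteins encoded by Vpreb1 and Igll1, together with the signalling partners Cd79a and Cd79b; this complex is the pre-B receptor. Later the surrogate light chain is replaced by a kappa or lambda light chain, of which Igkc is the kappa constant region, and a plasma cell finally secretes antibody, with Jchain joining IgM or IgA units. Ebf1 is a transcription factor that specifies the B lineage and is also made by stromal and vascular mural cells, Ms4a1 encodes CD20 of more mature B cells, and Vpreb3 encodes a chaperone-like relative of VpreB1.

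Of the 4668 cells, 844, 410, 1385 and 2029 carried hashtags 1, 2, 3 and 4, and no barcode occurred more than once. A cell had between 2495 and 43038 UMIs (unique molecular identifiers, the counted mRNA molecules). The authors' 11 clusters have numbers and no names. CD45 marks blood-derived cells and microglia, and its tag was counted 300 times or more on 99.8% of 404 cells in cluster 3 and 91.0% of 223 cells in cluster 6, against 1.71% to 23.1% in the other clusters. These 627 cells are referred to as CD45-high cells: 192, 43, 181 and 211 of them came from the brains with hashtags 1, 2, 3 and 4. Cluster 6 was neutrophil-rich, with S100a8, a neutrophil calcium-binding protein, at 513 UMIs per 10000, and 171 of its 223 cells came from the hashtag 1 brain. None of the 11 clusters was a B cell cluster: the summed level of Cd79a was at most 0.490 UMIs per 10000. Levels are summed UMIs per 10000 UMIs of the same cells, with exact Poisson 95% intervals. Shares of cells have exact binomial (Clopper-Pearson) 95% intervals, and both kinds cover counting error only. No value was divided by gene length, since the 3' assay counts 1 end of each molecule.

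The surrogate light chain genes lie side by side, and the region before each start is shown because 6 CD45-high cells held transcripts of both. In the RefSeq annotation of GRCm38.p6 (the mm10 assembly) Igll1 spans chr16:16860671-16863985 and Vpreb1 chr16:16868401-16869255, both on the minus strand, 4416 bases apart with no gene listed between them. Top3b, a topoisomerase gene, starts 1467 bases beyond Vpreb1 on the plus strand. Cd79a lies at chr7:24897497-24901858 on the plus strand. The 250 bases before each start are chr16:16869256-16869505 for Vpreb1, chr16:16863986-16864235 for Igll1 and chr7:24897247-24897496 for Cd79a, written 5′ to 3′ along the gene's strand from RefSeq. Capitals mark matches to CAGGTG (an E-box bound by E2A, a B lineage factor) and CCCNNGGG (the core of the Ebf1 motif), on either strand.
Vpreb1: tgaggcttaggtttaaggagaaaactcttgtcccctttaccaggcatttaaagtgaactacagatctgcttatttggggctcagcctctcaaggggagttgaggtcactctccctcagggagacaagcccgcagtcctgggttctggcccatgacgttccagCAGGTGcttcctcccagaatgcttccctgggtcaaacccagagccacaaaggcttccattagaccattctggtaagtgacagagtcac
Igll1: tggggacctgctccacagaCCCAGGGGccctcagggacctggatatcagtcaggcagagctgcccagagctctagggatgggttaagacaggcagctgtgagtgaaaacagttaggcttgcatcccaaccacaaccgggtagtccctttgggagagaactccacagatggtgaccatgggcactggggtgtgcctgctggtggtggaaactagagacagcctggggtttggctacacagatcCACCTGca
Cd79a: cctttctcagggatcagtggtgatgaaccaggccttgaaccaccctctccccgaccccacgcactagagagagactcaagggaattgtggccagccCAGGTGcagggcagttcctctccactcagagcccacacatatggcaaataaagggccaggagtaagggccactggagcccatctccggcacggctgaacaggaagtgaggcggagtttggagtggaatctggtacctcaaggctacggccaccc

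The E-box was present in these 3 windows, at positions -88, -8 and -154 from the start, and in 17.2% of 32851 promoter windows of the same length. The Ebf1 core matched once, at -231 of Igll1, and matched 11.8% of all windows. The octamer ATGCAAAT, bound by Oct factors and present in 1.60% of windows, matched at -45 of Vpreb3, whose window lies inside the listed span of its own gene. The ETS motif GAGGAAGT, in 2.44% of windows, had no match in a member. Of the members, 6 had a window in the table, and the E-box matched in 3 of them, with no match in Vpreb3, Ebf1 or Jchain. No motif overlapped another, and a match describes letters only.

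Among CD45-high cells, most surrogate light chain transcripts lay in a few cells. Both Vpreb1 and Igll1 were detected in 6 of the 627 cells, all from the hashtag 1 brain, 5 of them in cluster 6 and 1 in cluster 3. These 6 cells held 29 of the 41 Vpreb1 UMIs and 29 of the 31 Igll1 UMIs of the CD45-high cells. Over all cells they held less, 10.5% of 275 Vpreb1 UMIs and 39.7% of 73 Igll1 UMIs, since 157 Vpreb1 UMIs and 23 Igll1 UMIs were in cluster 1, described further on. Vpreb1 counts in these cells were 5, 5, 1, 6, 2 and 10 UMIs, and Igll1 counts were 5, 6, 3, 5, 6 and 4 UMIs. The same cells carried Vpreb3 at 6, 13, 9, 6, 3 and 3 UMIs and Ebf1 at 2, 5, 5, 8, 4 and 4 UMIs. Every one of the 6 cells, which were chosen by Vpreb1 and Igll1, thus also held Vpreb3 and Ebf1. Both of these genes were also found among the other B-lineage cells, defined below. Ighm was present in each at 1 to 3 UMIs and Cd79a in 5 of 6 at up to 8 UMIs. Ms4a1 was at 0 in all 6, which allows a level of up to 1.41 UMIs per 10000, and Igkc was at 4, 3 and 1 UMIs in 3 cells and 0 in the others. The 6 cells were of ordinary depth for their clusters, with 2958 to 3898 UMIs, and their median share of hashtag counts from hashtag 1 was 95.8%. Outside the CD45-high clusters, 5 more cells held both genes. Of these, 4 were in cluster 1, 1 in each brain, with 1 UMI of each gene and no UMI of another member. The fifth, a hashtag 1 cell placed in cluster 9, had 3 Vpreb1, 2 Igll1, 1 Vpreb3, 1 Cd79b and 3 Ebf1 UMIs among 14207 UMIs and a CD45 tag count of 2419.

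**Figure D1:**
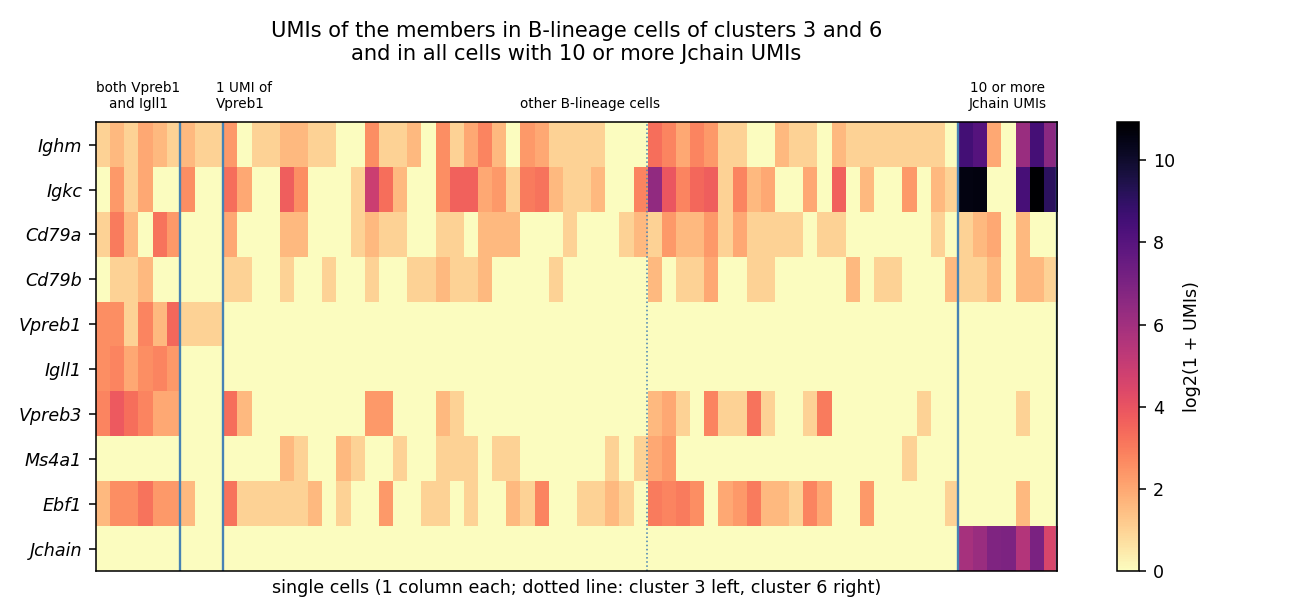
Each column is 1 cell and each row 1 gene, with color giving log2(1 + UMIs). Vpreb1 and Igll1 fill the 6 columns on the left, Ms4a1 is empty there, and Igkc, Ighm and Jchain are darkest in the 7 cells on the right, which were selected by Jchain.

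Per brain, the pair of surrogate light chain genes was found in 6 of 192 CD45-high cells of hashtag 1, or 3.13% (1.16 to 6.68%). No such cell was found among 43, 181 and 211 CD45-high cells of hashtags 2, 3 and 4. Counts of 0 there allow shares of up to 6.98%, 1.66% and 1.42%, all above the lower end of the hashtag 1 interval. Overlap of separate intervals is not a test of a difference, and no test between brains was run. The Igll1 level in cluster 6 is no separate evidence, since most of its UMIs lay in these same cells, which were chosen in part by Igll1. It was 25 UMIs in 171 hashtag 1 cells, or 0.347 per 10000 (0.224 to 0.512), and 0 in 9, 26 and 17 cells of the other brains. Those zeros allow 1.08, 0.266 and 0.387 UMIs per 10000.

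Genes of early B cell development were also present in the 6 cells, few as their molecules were. From the list of 14 early B and recombination genes, 13 were in the table and 8 had a UMI in these cells. The list summed to 16.4 UMIs per 10000 (11.4 to 22.8). Within the same brain it summed to 5.13 (3.91 to 6.62) in 27 other B-lineage cells, defined below, and to 4.70 (4.19 to 5.25) in the remaining 158 CD45-high cells. Cd24a, a surface glycoprotein of immature cells, had 16 UMIs in 3 cells, and Sox4, a transcription factor of progenitors, had 5 UMIs in 4 cells. Dntt, the polymerase that adds bases at recombination junctions, had 1 UMI, and Rag1, of the recombinase, had 0. Of the list of 14 pan-B genes, 12 had a UMI in the 6 cells, among them Pax5, the B cell identity factor, with 2 UMIs in 1 cell.

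The 6 cells had more cell cycle transcripts than other CD45-high cells of their brain. All 11 cell cycle genes of the list were detected, and their sum was 60.9 UMIs per 10000 (50.9 to 72.3). In the hashtag 1 brain it was 32.1 (28.9 to 35.5) in the 27 other B-lineage cells and 35.0 (33.6 to 36.5) in the remaining 158 CD45-high cells; over all brains those sums were 19.8 and 17.2. All 6 cells came from 1 brain, so the difference has no replicate across brains. Hmgb2, a chromatin protein, had 57 UMIs in 6 of 6 cells, and Stmn1, a microtubule regulator, had 26 UMIs in 5. Top2a, the mitotic topoisomerase, had 10 UMIs in 4 cells, and Mki67, a proliferation marker, had 5 UMIs in 3, against 5 UMIs in 4 of the 55 other B-lineage cells. The sum in a cell ranged from 2 to 39 UMIs, so the 6 cells were not alike. The mature B list gave 5 UMIs in 3 of the 6 cells, with Ighd, Fcmr and Cxcr5 at 0.

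Among CD45-high cells, B lineage membership was counted by a rule: a UMI of at least 2 of Cd79a, Cd79b, Ms4a1, Ebf1, Vpreb1, Vpreb3, Igll1 and Ighm. The rule was met by 64 of 627 CD45-high cells, or 10.2% (7.95 to 12.8%), and by 138 of 4041 cells of the other clusters, or 3.42% (2.88 to 4.02%), which are deeper. When every cell was thinned to 2495 UMIs, 44 CD45-high cells (7.02%) and 39 others (0.965%) met it. With 3 genes required, the counts were 34 (5.42%) and 24 (0.594%). At full depth the share was 8.49% in cluster 7 and 7.41% in cluster 9, near the 8.91% of cluster 3. After thinning these shares were 2.36%, 3.70% and 6.19%. By brain, 34 of 192 CD45-high cells of hashtag 1 were B-lineage, or 17.7% (12.6 to 23.9%). The hashtag 2 brain had 7 of 43, or 16.3% (6.81 to 30.7%), and the hashtag 3 brain had 6 of 181, or 3.31% (1.23 to 7.08%). The hashtag 4 brain had 17 of 211, or 8.06% (4.76 to 12.6%). Cells outside clusters 3 and 6 met the rule at 4.45%, 4.09%, 2.82% (1.96 to 3.92%) and 3.30% for hashtags 1 to 4. At full depth the hashtag 3 interval overlapped that of its background, and those of the other brains did not. After thinning, the background shares were 2.45%, 0.545%, 0.415% and 0.880%. The hashtag 3 share lay below that of hashtag 1 by more than counting error. Each is a single brain, and no test between brains was run. Their cells also differed in cluster: cluster 6 held 171 of 192 CD45-high cells of hashtag 1 and 26 of 181 of hashtag 3. The hashtag 4 interval lay below that of hashtag 1 only with 3 genes required, at 1.34 to 6.72% against 7.32 to 16.8%. With 3 genes required the shares for hashtags 1 to 4 were 11.5%, 4.65%, 1.66% and 3.32%, and after thinning 12.5%, 6.98%, 2.76% and 5.69%. Hashtag 2 was thus close to hashtag 1 only with 2 genes required at full depth, and its interval overlapped those of the other brains in all 3 counts. The value for all brains was 6.90% without the hashtag 1 brain and 13.004% without the hashtag 3 brain.

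All 28 B-lineage cells of cluster 6 came from hashtag 1, as did 171 of the 223 cells of that cluster. The 36 B-lineage cells of cluster 3 were split 6, 7, 6 and 17 over hashtags 1 to 4, among 21, 34, 155 and 194 cells. In the hashtag 1 brain the share was 28.6% (11.3 to 52.2%) in cluster 3, an interval that overlaps that of cluster 6. In cluster 6, 0 of 26 cells of hashtag 3 and 0 of 17 of hashtag 4 met the rule, which allows up to 11.5% and 17.6%, against 16.4% (11.2 to 22.8%) for hashtag 1. Vpreb1 or Igll1 was detected in 9 of the 64 B-lineage cells, or 14.1% (6.64 to 25.0%): 7 of 34 in hashtag 1, 0 of 7 in hashtag 2, 0 of 6 in hashtag 3 and 2 of 17 in hashtag 4. Of these 9 cells, 3 had a lone UMI of Vpreb1 and none of Igll1.

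Many of the other B-lineage cells, though not all, carried light chain transcripts, and fewer carried CD20 transcripts. Leaving out the 6 cells above and 3 cells with abundant Jchain described below, 55 cells remained, 27, 6, 5 and 17 from hashtags 1 to 4. Igkc, which the rule did not use, was at 12.04 UMIs per 10000 in them (10.7 to 13.5) and at 0.429 (0.350 to 0.521) in the 563 CD45-high cells that did not meet the rule. By brain the Igkc level in B-lineage cells was 15.0, 6.31, 20.9 and 7.89, against 0.300, 1.16, 0.368 and 0.475 in the other CD45-high cells. The level was higher in B-lineage cells in 4 of 4 brains, and the intervals did not overlap in any of them. The mean difference over brains was 4.49 on the log2 scale (SD 1.59, n = 4), with p = 0.125 in a two-sided exact permutation test of the paired differences, the smallest that 4 brains allow. The test was added after seeing the data and cannot decide, since no lower p was possible. The cells were also chosen by genes found together with Igkc: it was in 69.8% of CD45-high cells with Cd79a and 17.1% of those without. Single cells carried much of the Igkc level in B-lineage cells: the cell of most Igkc UMIs held 84 of 173, 12 of 18, 29 of 40 and 11 of 67 UMIs for hashtags 1 to 4. Without these 4 cells, a setting chosen after seeing the data, the levels were 8.24, 2.304, 7.52 and 7.26, and the interval for hashtag 2 (0.845 to 5.01) then overlapped that of its other CD45-high cells (0.651 to 1.92).

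Ms4a1 was found in 15 of the 55 cells at up to 4 UMIs, in 3, 4, 1 and 7 cells of hashtags 1 to 4. Ms4a1 and Vpreb3 are genes of the rule, so their presence in B-lineage cells is partly set by it. Outside the B-lineage cells no CD45-high cell had a Ms4a1 UMI. Vpreb3 was found in 17 of the 55 cells, 13, 0, 2 and 2 of hashtags 1 to 4. Of the pan-B genes 13 of 14 had a UMI in the 55 cells and summed to 9.09 UMIs per 10000 (7.94 to 10.4), against 2.43 (2.24 to 2.64) in the remaining CD45-high cells. Ly6d, a surface protein that marks B lineage commitment, led with 108 UMIs in 29 cells. Of 10 mature B genes measured, 9 had a UMI, among them Ighd, the IgD heavy chain, with 7 UMIs in 5 cells and none in the remaining CD45-high cells. Fcmr, the IgM Fc receptor, had 9 UMIs in 7 of the 55 cells and 1 UMI in the remaining CD45-high cells.

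Co-detection in the CD45-high cells was counted pair by pair and gives no order of stages. Cd79a was detected in 43 cells, and 15 of them, or 34.9% (21.0 to 50.9%), also had Cd79b, its partner, against 5.14% of cells without Cd79a. Vpreb3 was present in 46.5% of Cd79a cells and 0.856% of others, and Ebf1 in 55.8% and 7.36%. Both of those shares rested on the hashtag 1 brain: without it they were 19.0% and 28.6% of 21 Cd79a cells. Ms4a1 was present in 25.6% of Cd79a cells and 0.685% of others. None of the 15 Ms4a1 cells had Vpreb1 or Igll1, a count that allows a share of up to 20%. Cells without Ms4a1 had Vpreb1 in 2.94% and Igll1 in 1.31% of 612, so a difference was not detectable with 15 cells. Of 8 Igll1 cells, 6 had Vpreb1 as well, all in hashtag 1.

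Outside the members, the genes most like Cd79a in which CD45-high cells they were found were Mzb1, Ly6d, Iglc2, Gm43603 and Iglc1. Their Jaccard indices (cells with both genes divided by cells with either, over 627 cells) were 0.333, 0.278, 0.246, 0.235 and 0.213. Vpreb3, at 0.417, was the member closest to Cd79a. For Vpreb1 the closest genes were Pim2 and Zfp84, both at 0.167, then Slc45a4 at 0.162, and Foxj1 and Myh14 at 0.16. Those values rest on 4 to 6 shared cells, and Igll1, at 0.30, was closer than any of them. For Jchain, found in 7 CD45-high cells, the closest genes shared only 2 or 3 cells: Amotl2 at 0.15, Dcun1d2 at 0.133, and Crb3, Fam234b and Hspbap1 at 0.125.

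Surface tags split the B-lineage cells. CD11b, an integrin of myeloid cells, had a median tag count of 42 (33 to 1435) in the 6 cells with both surrogate light chain genes. Tag levels differed between brains, so the comparison is with cells of the same brain. CD11b had a median of 2055 (46 to 20308) in the 27 other B-lineage cells of hashtag 1 and of 2117 in the remaining 158 CD45-high cells. CD45 had a median of 1174 (345 to 3786) in the 6 cells, against 2949 and 2231. For hashtags 2, 3 and 4, CD11b medians were 5176.5, 5076 and 5389 in the other B-lineage cells. They were 3058, 5438 and 4783.5 in CD45-high cells that did not meet the rule. The part of myeloid cells in those B-lineage droplets was not tested. Among the 28 cluster 6 B-lineage cells of hashtag 1, 13 had at least 100 S100a8 UMIs, a limit set after seeing the values, with a CD11b median of 4499 (1377 to 20308). The other 15 had at most 2 S100a8 UMIs and a CD11b median of 134 (33 to 1187). Neutrophil marker RNA and CD11b were therefore present in 13 of these 28 droplets beside the B lineage RNA, and their part in the B-lineage count was not tested. Without all cells of at least 100 S100a8 UMIs the B-lineage share was 9.78%, or 49 of 501.

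Markers of other cells in the 6 surrogate light chain cells were few molecules, though not all were below the level in other cells of the hashtag 1 brain. Over 7 neutrophil genes they summed to 5.15 UMIs per 10000 (2.57 to 9.22), with Retnlg, Ly6g and Ltf at 0. The sum was 852 in the 27 other B-lineage cells of that brain, carried by some cells: the median per cell was 5 UMIs and the highest 2362, against a median of 2.5 in the 6 cells. All 4 granule progenitor genes (Mpo, Elane, Prtn3 and Ctsg) and all 5 mammary carcinoma genes were at 0. T cell genes were higher in the 6 cells, at 6.56 UMIs per 10000 (3.59 to 11.01) from 14 UMIs in 4 cells, against 1.39 (0.795 to 2.26) in the 27 cells and 1.11 (0.872 to 1.39) in the remaining 158. NK cell genes summed to 6.09 (3.24 to 10.4) from 13 UMIs in 2 cells, against 2.09 (1.34 to 3.11) and 2.76 (2.38 to 3.19). Choroid plexus genes summed to 125 over 3 of 7 genes, against 236 and 321. The part of these transcripts in the results was not tested. In the 55 other B-lineage cells 6 of 6 microglia genes had UMIs and summed to 23.4 per 10000 (21.6 to 25.4). In the 563 CD45-high cells that did not meet the rule they summed to 13.6 (13.1 to 14.1). The 4 monocyte genes summed to 12.7 (11.3 to 14.2) in the former and 14.4 (13.9 to 14.9) in the latter. The 7 neutrophil genes summed to 439 and 396. What other cells added to these droplets was not tested. The MHC class II genes, which present antigen, had UMIs in 3 of the 6 cells. Of their 76 UMIs of Cd74, the invariant chain, 71 were in the cell of cluster 3, which also had the highest CD11b tag of the 6.

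**Figure D2:**
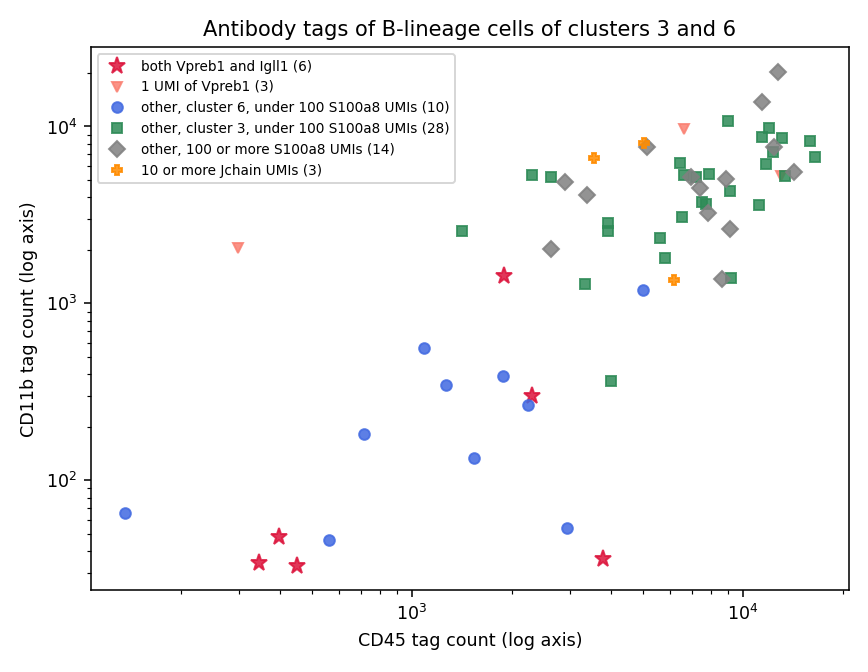
CD45 (x axis) and CD11b (y axis) tag counts of B-lineage cells in clusters 3 and 6, both on log axes, 1 point per cell, by class. Of the 6 cells with both Vpreb1 and Igll1, 4 lie below a CD11b count of 50, and all cells with at least 100 S100a8 UMIs lie at 1377 or above.

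A few cells rich in Jchain held most of the Igkc, Ighm and Jchain molecules. Per cluster, Igkc was highest in cluster 3 at 17.7 UMIs per 10000 (17.1 to 18.3), then cluster 2 at 2.44 (2.36 to 2.53) and cluster 6 at 2.098 (1.82 to 2.41), and these last intervals overlap. Ighm was highest in cluster 3 at 3.67 (3.39 to 3.96), then cluster 6 at 1.18 (0.972 to 1.42). Jchain was highest in cluster 3 at 1.14 (0.986 to 1.31), then cluster 2 at 0.281 (0.254 to 0.310). These levels rested on 7 cells with at least 10 Jchain UMIs, a limit chosen after the values were seen, which held 75.2% of all 7858 Igkc UMIs, 68.0% of 1695 Ighm UMIs and 86.2% of 658 Jchain UMIs. Without them the level over clusters 3 and 6 went from 12.2 to 1.54 UMIs per 10000 for Igkc, from 2.79 to 0.827 for Ighm and from 0.742 to 0.0151 for Jchain. The order of the clusters also turned: without them cluster 3 was at 1.24 for Igkc and 0.632 for Ighm, below cluster 6 at 2.098 and 1.18. Jchain was then at 0.0176 (0.00362 to 0.0513) in cluster 3 and highest in cluster 10 at 0.0418 (0.00862 to 0.122), which overlap.

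These 7 cells came from all 4 brains, and 4 of them were placed in cluster 2 rather than among the CD45-high clusters. In cluster 3, a hashtag 1 cell had 347 Igkc, 73 Ighm and 45 Jchain UMIs. A hashtag 2 cell had 1942, 357 and 127, and a hashtag 3 cell had 559, 96 and 22. Each of these cells thus held kappa light chain and mu heavy chain transcripts. They also had CD11b tag counts of 1357, 6611 and 8083, and microglia genes at 42.6 UMIs per 10000 (34.2 to 52.3), 83 of the 90 UMIs in 1 cell, against 13.6 in the CD45-high cells that did not meet the rule. The part of other cells in these droplets was not tested. In cluster 2, 2 cells of hashtag 1 had 1497 and 1565 Igkc UMIs with 359 and 264 Ighm UMIs, also kappa and mu.

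The other 2 cells of cluster 2, from hashtag 4, had no Igkc UMI and 117 and 125 Jchain UMIs. They held 1702 and 1078 UMIs of Iglc1, a lambda constant region. Their heavy chains differed: 1 had 166 UMIs of Ighg2b, an IgG heavy chain, and the other had 74 UMIs of Igha, the IgA heavy chain. Immunoglobulin constant regions made up 6.58% to 48.1% of all UMIs in the 7 cells. Mzb1, a chaperone of antibody secretion, was found in 7 of 7 cells, with 14 UMIs in the 3 cells of cluster 3 and 39 in the 4 of cluster 2, and in 10 of the 774 other cluster 2 cells. The plasma cell list of 10 genes summed to 12.8 UMIs per 10000 (8.42 to 18.6) in the former cells and 32.4 (25.2 to 41.1) in the latter, against 5.37 in the rest of cluster 2. Sdc1, the plasma cell syndecan, gave no such contrast, with 1 UMI in the 7 cells and 1.23 UMIs per 10000 in the rest of cluster 2.

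The 4 cells in cluster 2 stood apart from their cluster in depth and surface tags. They had 3914 to 7317 UMIs, against a cluster 2 median of 18785 without them. Their CD45 tag counts were 1035 to 3300, against a median of 50. MHC class II genes summed to 147 UMIs per 10000 (131 to 164) in them and 3.08 (2.99 to 3.18) in the rest of cluster 2. Vpreb1, Igll1, Vpreb3, Ms4a1 and Ebf1 were all at 0 in the 4 cells, a count that allows up to 1.41 UMIs per 10000.

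Away from these cells, Igkc was spread thinly over the whole data set. Among all cells with an Igkc UMI, 78.4% had exactly 1. At full depth an Igkc UMI was found in 29.7% of cells outside clusters 3 and 6 and 20.7% of cells inside them. After thinning the shares were 8.98% and 16.1%, so the order turned with depth. Ighm was found in 2.40% and 15.2% of cells after thinning. Without the 7 cells the Igkc level of cluster 2 was 0.275 UMIs per 10000, close to the 0.288 to 0.633 of the other clusters outside 3 and 6.

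**Figure D3:**
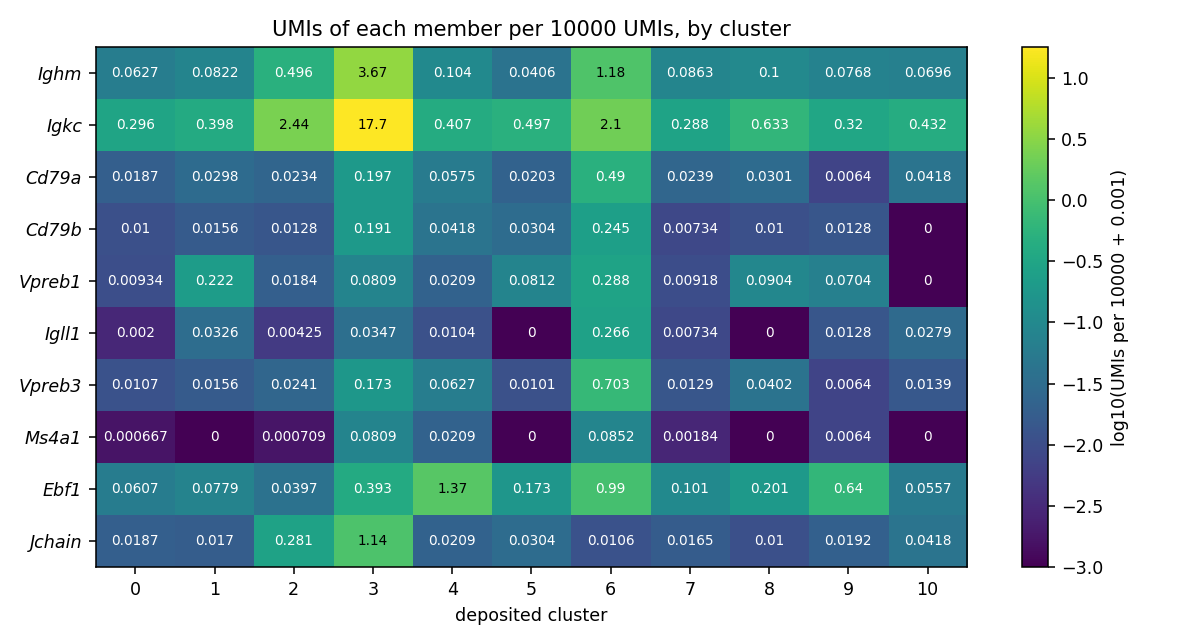
UMIs of each member per 10000 UMIs in each of the 11 deposited clusters, with color on a log10 scale (0.001 added) and the value printed in each cell. Igkc, Ighm and Jchain peak in cluster 3, Ebf1 in cluster 4, and the other 6 genes in cluster 6, with Vpreb1 nearly as high in cluster 1.

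Cd79a, Cd79b, Vpreb1, Igll1, Vpreb3 and Ms4a1 were highest in cluster 6. Cd79a was at 0.490 (0.359 to 0.653) in cluster 6 and 0.197 (0.136 to 0.275) in cluster 3, and at most 0.0575 elsewhere. Cd79b was at 0.245 and 0.191, Vpreb3 at 0.703 and 0.173, and Ms4a1 at 0.0852 and 0.0809 in clusters 6 and 3, and for Cd79b and Ms4a1 these 2 levels differ by less than counting error. Cd79a in cluster 6 came from the hashtag 1 brain alone: 46 UMIs in its 171 cells, or 0.638 per 10000, and 0 in the other brains, which allows 1.08, 0.266 and 0.387. In cluster 3 Cd79a was at 0.677, 0.431, 0.119 and 0.169 for hashtags 1 to 4. Without the hashtag 1 brain, 7 rather than 9 of the 10 members had their highest level in cluster 3 or 6.

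Ebf1 was highest outside the blood cells. Its level was 1.37 UMIs per 10000 (1.21 to 1.54) in cluster 4, 0.990 (0.799 to 1.21) in cluster 6 and 0.640 (0.520 to 0.778) in cluster 9. Cluster 4 was endothelium-like: Cldn5, a claudin of tight junctions, was at 16.6 UMIs per 10000, and cluster 9 was smooth muscle-like, with the actin gene Acta2 at 10.9. Ebf1 was detected in 150 of 295 cluster 4 cells, 56.9%, 58.9%, 43.2% and 47.7% for hashtags 1 to 4. In cluster 9 it was detected in 68 of 162 cells, 38.2%, 35.7%, 38.7% and 45.8%. The thinned share was 39.3% in cluster 4 and 20.4% in cluster 9, against 7.50% in the CD45-high cells and 1.69% in cluster 0. CD45 tags of at least 300 were present on 7.12% of cluster 4 cells.

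Vpreb1 had a second site of detection, cluster 1. This cluster was choroid plexus epithelium-like, and Ttr, which encodes a secreted carrier of thyroid hormone, was at 3017 UMIs per 10000 in it. Vpreb1 was found in 140 of its 880 cells, at 14.1%, 15.0%, 18.2% and 17.3% for hashtags 1 to 4. The level was 0.222 UMIs per 10000 (0.189 to 0.260), which overlaps the 0.288 (0.189 to 0.418) of cluster 6. By brain it was 0.223, 0.241, 0.201 and 0.227. The share was similar in all 4 brains. A UMI of Vpreb1 or Igll1 was found in 10, 0, 4 and 6 CD45-high cells of hashtags 1 to 4. Both genes together were found in 1 cluster 1 cell of each brain, and among CD45-high cells in the hashtag 1 brain only.

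The cells behind these levels differed. In cluster 1, 126 of the 140 cells had exactly 1 Vpreb1 UMI and none had more than 3, while the 6 cells with both genes reached 10. After thinning, 6.48% of cluster 1 cells had a Vpreb1 UMI, against 0.506% in cluster 0 and 0.771% in cluster 2, which are deeper. Vpreb1 was also above those clusters in clusters 5 and 8, at 0.0812 and 0.0904 UMIs per 10000, where Ttr was at 1429 and 1438. The same held in clusters 3 and 9, at 0.0809 and 0.0704, where Ttr was at 262 and 491. Of the 14 Vpreb1 UMIs of cluster 3, 5 were in its cell with both genes. Cluster 4, with Ttr at 344, had Vpreb1 at only 0.0209 (0.00569 to 0.0535), an interval that holds the 0.0184 of cluster 2. Cluster 1 cells with and without Vpreb1 had the same median CD45 tag count, 39, and Ttr took a median of 35.0% and 33.5% of their UMIs.

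Of the partner genes, Igll1 was also higher in cluster 1, at 0.0326 UMIs per 10000 (0.0207 to 0.0489), than in clusters 0, 2 and 7 together, at 0.00376 (0.0020 to 0.00644). That is close to the 0.0347 of cluster 3, and after thinning 0.909% of cluster 1 cells had an Igll1 UMI. It was found in 23 of 880 cells, each with 1 UMI: 4 of the 140 Vpreb1 cells (2.86%) had it, and 19 of the 740 others (2.57%). Ms4a1 was at 0 in cluster 1, and Cd79a and Vpreb3 were at 0.0298 and 0.0156 UMIs per 10000. Top3b, the neighbour on the opposite strand, was at 0.283 UMIs per 10000 (0.245 to 0.325) in cluster 1 and 0.315 (0.214 to 0.446) in cluster 5, against 0.0832 to 0.168 in the other clusters. Top3b starts 1467 bases beyond Vpreb1 and runs away from it, so the listed spans of these genes do not overlap. The strand setting of the counting is unknown, and whether Top3b reads were counted as Vpreb1 was not tested.

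**Figure D4:**
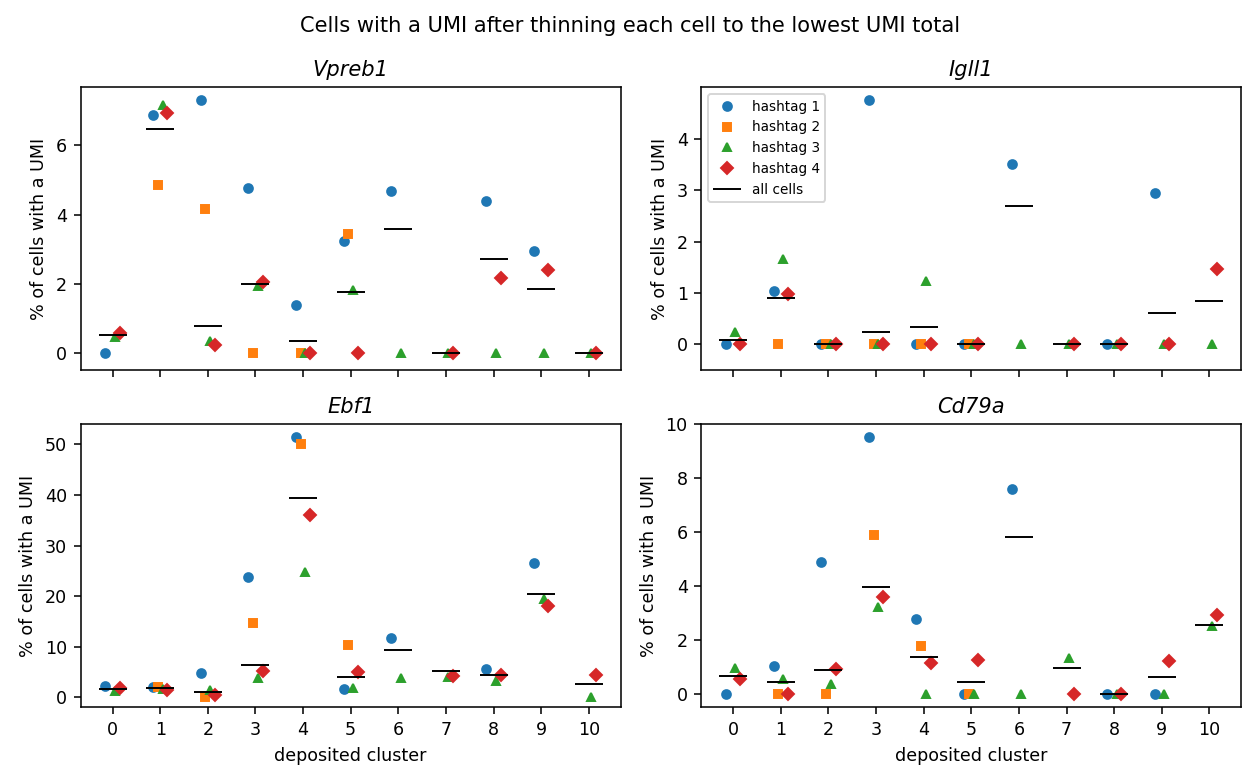
Percent of cells with a UMI of Vpreb1, Igll1, Ebf1 or Cd79a after thinning each cell to 2495 UMIs (y axes) by deposited cluster (x axes), with 1 symbol per brain of at least 20 cells and a bar for all cells. Over all cells (bars) Vpreb1 is highest in cluster 1 at 6.48%, Ebf1 in cluster 4 at 39.3%, Igll1 in cluster 6 at 2.69% and Cd79a in cluster 6 at 5.83%.

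Some of the Vpreb1 counts in CD45-high cells came with choroid plexus RNA. Of 18 CD45-high cells with Vpreb1, 12 lacked Igll1, and each of the 12 had exactly 1 Vpreb1 UMI. Ttr was above 5% of UMIs in 5 of the 12, in 0 of the 6 with both genes, and in 5.42% of CD45-high cells without Vpreb1. The part of free choroid plexus RNA or mixed droplets in the 12 cells was not tested.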

How the data were processed

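CITE-seq data of 1 pool of 4 mouse brains were used, as a cDNA library, an antibody tag library and a hashtag library. The authors deposited gene values as the natural log of 1 plus UMIs per 10000, and a cell table with the count of UMIs and of each tag, a mitochondrial fraction that was not used, a hashtag class and a cluster number. The submitters' processing notes name Cell Ranger 2.1, Seurat 2.3.4 and mm10 and give no roles. Filters on cells: not given in the sources used here. Whole UMI counts were regained by unlogging the values (99.8% whole within 0.01). All cells were kept, and no doublet was removed.

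Levels, shares with exact 95% intervals, co-detection, thinning to the lowest total (2495 UMIs, seed 1) and Jaccard indices (genes seen in at least 10 of the CD45-high cells, the 5 highest for each of 3 members) were computed in Python 3.11.15 with numpy 2.4.6 and scipy 1.17.1, and checked on simulated data. Beside a 0 stands the level or share that 3 counts would give. The planned limma comparison of surrogate light chain-positive with other B-lineage cells was not run, because only 1 brain reached 5 cells of both classes, so no test across genes is given. The members, the gene lists and the markers were chosen with earlier results of these data known. The text names all 10 members, genes of those lists and the Jaccard genes. Promoter windows and gene positions came from RefSeq tables of GRCm38.p6. Cells of a brain are not replicates. The only p-value is an exact paired permutation test of Igkc over the 4 brains, added after seeing the data. Alternatives are described at the end.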

Additional observations from a re-analysis of the deposited data

How the results depend on the processing

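The share of B-lineage cells among CD45-high cells, 10.2%, moved to 5.42% with 3 genes required, to 6.54% with Ighm left out of the rule and to 7.02% after thinning. Leaving out each brain in turn gave 6.90% (without hashtag 1) to 13.004% (without hashtag 3). It was 8.13% without Ebf1 in the rule and 9.78% without cells of at least 100 S100a8 UMIs, both chosen after seeing the data. The surrogate light chain-positive share of B-lineage cells, 14.1%, moved to 42.2% when Vpreb3 was added, and leaving out each brain gave 6.67% (without hashtag 1) to 15.8%. The share of Cd79a cells with Cd79b, 34.9%, ranged from 23.8% (without hashtag 1) to 38.9%. The number of members highest in cluster 3 or 6 was 7 to 9 over all settings. Of 88 further values of single genes and pairs under an alternative, 53 stayed within counting error and 35 moved. The paired difference of Igkc over brains, 4.49 on the log2 scale, was 3.51 without the cell of most Igkc UMIs in each brain and 4.05 to 5.18 leaving out each brain, where the smallest exact p is 0.25. The planned comparison of surrogate light chain-positive with other B-lineage cells had only 1 brain with enough cells, so its other settings were not run. Counts of 0 surrogate light chain pairs in 3 brains allow shares that reach the interval of the brain that had them, which is no test of a difference. The pairs in CD45-high cells came from 1 brain, so their presence there has no replicate across brains.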
